A study of Mus musculus with 6 samples.

Results

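The genes described here are 9 genes of mineralized matrix, taken from the 55487 genes of the deposited table by name for their known function in odontoblasts and osteoblasts: *Dspp*, *Dmp1*, *Ibsp*, *Spp1*, *Mepe*, *Bglap*, *Phex*, *Sp7* and *Runx2*. RNA-seq was performed on dental epithelium of the mandibular first molar at postnatal day 2.5, with 3 libraries from Wnt10aflox/flox mice (control) and 3 from K14-Cre;Wnt10aflox/flox mice (cKO). Both groups carried the floxed *Wnt10a* alleles, and Cre under the keratin 14 promoter was present in the cKO group, so that the deletion was directed at epithelial cells and not at the mesenchyme that makes dentin and bone. Each library pooled the epithelium of 4 molars according to the series' design text, and the paper's methods state another number. The values are TPM, abundances scaled by transcript length and by the total of the library, which keep no sequencing depth, so that no counting error could be given. Where 3 values of a group are given, they are those of replicates 1, 2 and 3 in that order.

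Dentin and bone are collagen scaffolds that are filled with mineral by odontoblasts and osteoblasts. The SIBLING proteins (small integrin-binding ligand N-linked glycoproteins) are acidic, phosphorylated proteins that these cells secrete into the scaffold, where they bind calcium and integrins and steer the growth of the crystals. RUNX2 and SP7 (osterix) are transcription factors at the start of the osteoblast program, PHEX is a membrane peptidase that breaks down mineral-inhibiting peptides of the SIBLING proteins, and osteocalcin, the product of *Bglap*, is a late, vitamin K-dependent protein of the mineralized matrix. In teeth these genes belong mainly to the mesenchymal side, although *Dspp* is also known to be transcribed for a short time in young ameloblasts.

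In the annotation of GRCm38, 5 of the genes lie together on the forward strand of chromosome 5 between 104170712 and 104441050, a span of 270.3 kb, in the order *Dspp*, *Dmp1*, *Ibsp*, *Mepe* and *Spp1*. The other 4 are reverse-strand genes, *Bglap* at chr3:88383501-88384464, *Phex* at chrX:157162075-157415312, *Sp7* at chr15:102356606-102367182 and *Runx2* at chr17:44495987-44814797. *Runx2* overlaps *Supt3* on the opposite strand over 37646 bases of the gene spans, and *Supt3* had a mean of 6.58 TPM, close to that of *Runx2*. The counting is not stated to have used strand, so the level of *Runx2* is uncertain to that extent.

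RefSeq promoters of GRCm38.p6 were matched for 7 of the 9 genes, with 9 start sites. The 250 bases before the start are shown for *Bglap*, the gene whose groups did not overlap, and for the chromosome 5 neighbours *Ibsp*, *Spp1* and *Mepe*. Of these, *Ibsp* and *Spp1* were alike in mean level but not in spread, and *Mepe* was close to 0. Capitals mark ACCACA or its reverse complement TGTGGT, the core of the site bound by RUNX factors. The regions are chr3:88384467-88384716 on the reverse strand for *Bglap*, and on the forward strand chr5:104299037-104299286 for *Ibsp*, chr5:104434861-104435110 for the upstream start of *Spp1* and chr5:104325079-104325328 for *Mepe*.
Bglap: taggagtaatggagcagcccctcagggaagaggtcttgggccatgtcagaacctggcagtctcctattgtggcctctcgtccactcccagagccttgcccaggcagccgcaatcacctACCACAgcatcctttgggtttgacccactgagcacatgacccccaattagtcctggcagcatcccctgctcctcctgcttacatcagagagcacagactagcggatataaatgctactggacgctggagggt
Ibsp: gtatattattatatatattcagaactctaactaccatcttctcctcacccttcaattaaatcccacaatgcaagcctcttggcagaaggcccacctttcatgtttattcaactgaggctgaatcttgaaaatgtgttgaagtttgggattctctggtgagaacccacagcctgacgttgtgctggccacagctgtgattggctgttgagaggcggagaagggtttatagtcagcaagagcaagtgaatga
Spp1: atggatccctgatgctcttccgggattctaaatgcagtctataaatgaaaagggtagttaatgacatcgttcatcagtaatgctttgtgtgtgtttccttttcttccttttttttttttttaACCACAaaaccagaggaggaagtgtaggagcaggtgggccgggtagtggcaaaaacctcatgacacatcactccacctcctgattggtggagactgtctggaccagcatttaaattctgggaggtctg
Mepe: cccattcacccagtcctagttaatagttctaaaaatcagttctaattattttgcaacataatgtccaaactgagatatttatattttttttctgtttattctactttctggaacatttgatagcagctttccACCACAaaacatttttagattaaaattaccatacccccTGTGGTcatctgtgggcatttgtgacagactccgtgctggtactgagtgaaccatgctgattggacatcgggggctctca
The RUNX core was found on either strand in 5 of the 9 windows of these genes, against 14.05% of the 32851 promoters of the same table. It began 132 bases before the start of *Bglap*, 128 bases before that of *Spp1*, 80 bases before that of *Runx2*, and 164 bases before the downstream start of *Dmp1*. *Mepe* held 2 matches, 118 and 80 bases before its start. No match was found in these windows of *Ibsp*, *Phex*, the upstream start of *Dmp1* or the downstream start of *Spp1*. A CCAAT box (CCAAT or ATTGG) was found in 6 of the 9 windows, against 33.85% of all promoters, and a TATA box (TATAAA or TTTATA) in 4 of 9, against 12.37%. The matches in these windows did not overlap each other, and a match describes the letters only.

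The samples were checked first. *Wnt10a* was 55.96, 51.2 and 57.86 TPM in control against 22.69, 21.79 and 32.22 TPM in cKO, in the direction of the labels. The defining markers of dental epithelium were abundant in every library, with *Amelx*, the main enamel matrix gene, as the highest, and 8 epithelial markers summed to between 100662 and 245764 TPM. The *Amelx* share was 8.65% of all TPM in cKO replicate 2 and between 16.5% and 20.6% in the other 5 libraries, so that cKO replicate 2 stood apart. Mesenchymal RNA was present in all of them. The 10 markers of dental mesenchyme and fibroblasts, led by *Col1a1*, summed to between 3039 and 5630 TPM in the control and between 3906 and 4244 TPM in the cKO libraries. The 7 odontoblast markers, of which *Dspp*, *Dmp1* and *Phex* are described here, summed to between 2262 and 4684 TPM in the control and between 2986 and 3453 TPM in the cKO libraries. The 9 osteoblast markers, of which *Bglap*, *Ibsp*, *Sp7* and *Runx2* are described here, summed to between 3295 and 5353 TPM and between 4595 and 5366 TPM. *Col1a1* led the odontoblast and osteoblast lists too, at between 1795 and 3127 TPM over the 6 libraries. The mesenchymal, odontoblast and osteoblast sums are therefore not separate signals. The osteocyte list was led by *Dmp1*, at between 78.6 and 178.8 TPM in all for its 5 genes over the 6 libraries. Chondrocyte markers were near 0, with 6 genes, led by *Col2a1*, summing to at most 2.2 TPM and *Matn1* listed at 0 throughout. The 6 skeletal muscle markers, led by *Mylpf*, summed to at most 7.23 TPM, the 6 macrophage markers, led by *C1qa*, to at most 36.62 TPM, and the 5 endothelial markers, led by *Pecam1*, to between 60.18 and 95.47 TPM in control and between 47.7 and 67.31 TPM in cKO. The 5 red blood cell genes, led by *Hbb-bs*, summed to 1761, 1325 and 1978 TPM in control against 1228, 1282 and 1161 TPM in cKO, without overlap (two-sided exact permutation test, p = 0.1). In these pooled tissue samples, fewer cells of a type and less RNA per cell cannot be told apart.

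The 9 genes covered a wide range of levels in the molar epithelium libraries. Over the 6 libraries, *Dspp* had the highest mean, 796 TPM, which placed it 155th of all listed genes, and *Bglap* followed with 655 TPM at place 176. *Dmp1* had a mean of 89.1 TPM, and *Ibsp*, *Spp1* and *Phex* lay close together at 39.6, 37.6 and 36.6 TPM. The transcription factors were lower, with 20.4 TPM for *Sp7* and 7.29 TPM for *Runx2*. The neighbours *Ibsp*, *Spp1* and *Phex* in this order did not differ beyond their spread between libraries, and neither did *Dspp* and *Bglap*, whose order was turned in 3 of the 6 libraries. *Mepe*, known from osteocytes and odontoblasts, was close to 0 in every library although it lies between *Ibsp* and *Spp1* on chromosome 5.

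**Figure D1:**
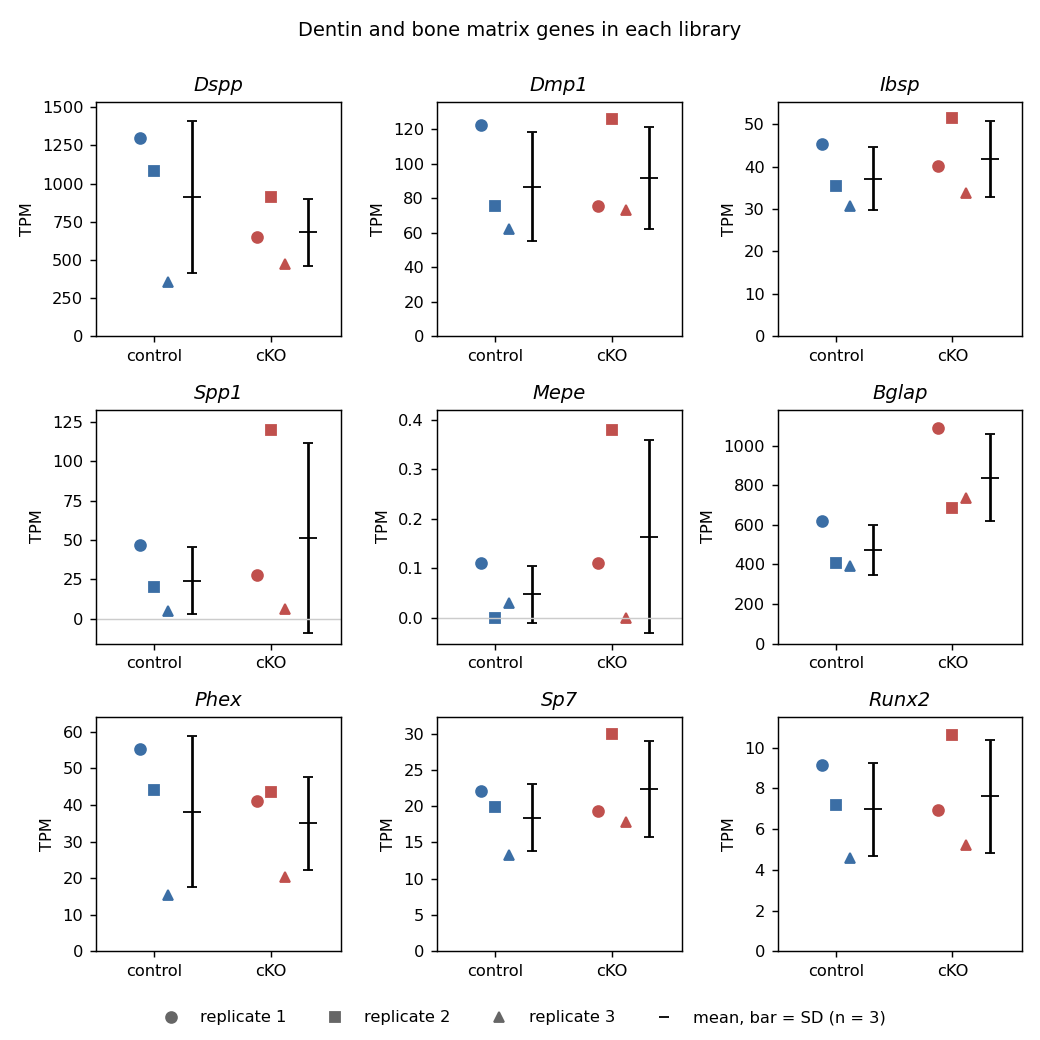
TPM of the 9 dentin and bone matrix genes (vertical axes, linear) in the 3 control (blue) and 3 cKO (red) libraries, with symbols for the replicate number and the mean with its SD (n = 3) in black beside each group. The 3 cKO libraries of *Bglap*, from 685.9 to 1089 TPM, lie above the 3 control libraries, from 392.2 to 618.1 TPM, and the groups of the other 8 genes overlap.

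To see whether deletion of epithelial *Wnt10a* changed these genes, the groups were compared with limma on log2(TPM + 1) over the 13719 genes whose mean reached 1 TPM. On that scale, changes of genes with low TPM come out too small. Of the 9 genes, 8 were tested, and *Mepe* was below the filter. *Bglap* was the only one of the 8 that met the criteria of the study's methods (mean TPM more than 20% apart and p below 0.05 without adjustment), against 4.02% of all tested genes in either direction and 1.55% that were higher in cKO. The groups did not overlap for 1 of the 8 genes, again *Bglap*, against 9.64% of all tested genes, made up of 3.51% higher and 6.13% lower in cKO. By limma with Benjamini-Hochberg adjustment over all genes, 0 of the 8 had a p below 0.05, against 0.0146% of all tested genes, and 1 of the 8 was below it unadjusted. The median log2 fold change (cKO minus control) was 0.13 over the 8 genes and -0.07 over all tested genes. The median of the 8 turned to -0.12 without control replicate 3 and to -0.15 without cKO replicate 2. In these fits the median over all tested genes was -0.18 and -0.17. Of the 8 genes, 6 had a positive log2 fold change, against 39.7% of all tested genes, and 2, *Dspp* and *Phex*, a negative one. That of *Phex* became positive with quantile normalization (0.040), median-ratio scaling (0.055) and correction for transcript length and GC content (0.15).

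*Dspp* encodes the precursor of dentin sialoprotein and dentin phosphoprotein, the most abundant proteins of dentin other than collagen. It was 1302, 1083 and 352.0 TPM in control against 651.4, 912.0 and 475.1 TPM in cKO. Replicates 1 and 2 of the control group were the highest of all libraries and replicate 3 of the control group the lowest, so the cKO values lay inside the control range. Its mean over 3 libraries was 912 ± 497 TPM (SD, n = 3) for control, against 680 ± 220 TPM (SD, n = 3) for cKO. The log2 fold change was -0.27 (standard error 0.50, 95% interval -1.44 to 0.90), with an unadjusted p of 0.602 and an adjusted p of 1.00 from limma. This value depended on single libraries. Without control replicate 3 the log2 fold change was -0.86 with a limma p of 0.0202 before adjustment, and without control replicate 1 it was 0.087. It was -0.046 without control replicate 2 and -0.039 without cKO replicate 3. Leaving out both libraries numbered 3, a choice made after the values were seen, gave -0.62 with a limma p of 0.0231 before adjustment.

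*Dmp1*, whose acidic product is found in dentin and around osteocytes, was 122.2, 75.54 and 62.19 TPM in control against 75.56, 125.9 and 73.34 TPM in cKO. Control replicate 1 and cKO replicate 2 were well above the other 4 libraries. The log2 fold change was 0.09 (standard error 0.31, 95% interval -0.64 to 0.82) with a limma p of 0.775 before adjustment. Within a library, *Dspp* was 10.65, 14.34 and 5.66 times *Dmp1* in the control and 8.62, 7.25 and 6.48 times in the cKO libraries, on the TPM scale, and control and cKO values overlapped (p = 0.4, two-sided exact permutation test).

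*Ibsp*, which encodes bone sialoprotein, a starter of mineral deposition, had the narrowest spread of the group. It was 45.46, 35.35 and 30.82 TPM in control against 40.25, 51.6 and 33.83 TPM in cKO. The cKO values were spread around those of the control, with a log2 fold change of 0.16 (standard error 0.22, 95% interval -0.36 to 0.69) and a limma p of 0.484 before adjustment. Its spread within groups, an SD of 0.29 on the log2(TPM + 1) scale, was at the 47.5th percentile of all tested genes.

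*Spp1* encodes osteopontin, which is made by osteoblasts and also by osteoclasts, macrophages and several epithelia. It was 46.98, 20.33 and 4.81 TPM in control against 27.62, 120.0 and 6.02 TPM in cKO. The highest library, cKO replicate 2, was 24.9 times the lowest, control replicate 3, and both libraries numbered 3 were far below the others. The log2 fold change was 0.68 (standard error 1.11, 95% interval -1.94 to 3.29), with a limma p of 0.561 before adjustment. Without cKO replicate 2 it was -0.35, and without control replicate 3 it was -0.14. The SD within groups on the log2(TPM + 1) scale was 1.81, at the 98.6th percentile of all tested genes.

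The level of *Spp1* moved across libraries together with markers of osteoclasts, the bone-resorbing cells, and also with other genes described here. Summed over 7 osteoclast markers, the level was 99.66, 40.92 and 22.86 TPM in control against 48.05, 131.1 and 17.39 TPM in cKO. The 4 libraries with the highest *Spp1* were also the 4 with the highest marker sum, in the same order, and the 2 libraries numbered 3 were the lowest of both. Most of the sum came from 3 of the 7 markers, *Ctsk*, *Acp5* and *Mmp9*, genes of bone matrix breakdown. *Ctsk* was 41.53, 17.99 and 7.34 TPM in control against 21.85, 54.96 and 6.27 TPM in cKO. The markers of osteoclast fusion and late differentiation, *Dcstamp*, *Ocstamp*, *Oscar* and *Calcr*, were at or below 1.3 TPM in every library. The 6 macrophage markers, by contrast, summed to 36.62, 18.67 and 25.34 TPM in control against 21.06, 23.06 and 21.1 TPM in cKO and did not follow that order. *Spp1* also varied with *Runx2*, *Ibsp* and *Sp7*, with Pearson correlations of log2(TPM + 1) of 0.986, 0.969 and 0.937 over the 6 libraries. Both libraries numbered 3 were the lowest of their group for 37.2% of all tested genes. Low values in them were therefore not particular to *Spp1* and osteoclast markers. The part of osteoclasts and macrophages in the *Spp1* values was not tested.

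**Figure D2:**
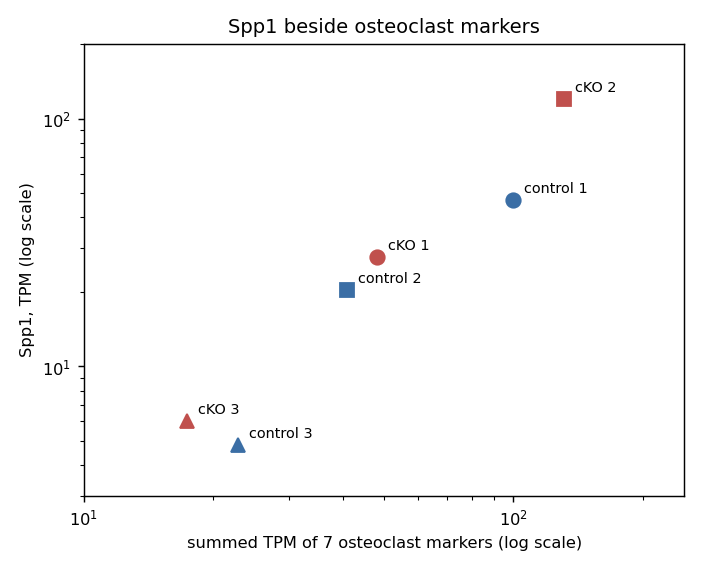
TPM of *Spp1* (vertical axis, log scale) against the summed TPM of 7 osteoclast markers (horizontal axis, log scale) in the 6 libraries, with control in blue, cKO in red and symbols for the replicate number. The points run from the libraries numbered 3, at 4.81 and 6.02 TPM of *Spp1*, to cKO replicate 2 at 120.0 TPM, with both groups mixed along the way.

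*Mepe* encodes a SIBLING protein that carries the mineral-inhibiting ASARM peptide cut by PHEX. It was 0.11 TPM, listed at 0 and 0.03 TPM in control, and 0.11 TPM, 0.38 TPM and listed at 0 in cKO. The highest value was that of cKO replicate 2. The groups overlapped, and no fold change is given at this level.

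*Phex* was 55.21, 44.01 and 15.26 TPM in control against 41.19, 43.43 and 20.39 TPM in cKO. Both libraries numbered 3 were far below the other 4, whatever their group. The log2 fold change was -0.01 (standard error 0.50, 95% interval -1.19 to 1.17), with a limma p of 0.981 before adjustment. *Phex* varied with *Dspp*: the ratio of *Dspp* to *Phex* was 23.58, 24.61 and 23.07 in the control libraries, although *Dspp* itself ranged from 352.0 to 1302 TPM among them, and lay between 15.82 and 23.3 in the cKO libraries (two-sided exact permutation test, p = 0.2).

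The transcription factors *Sp7* and *Runx2* stayed in a narrow ratio to each other. *Runx2* was 9.16, 7.17 and 4.57 TPM in control against 6.96, 10.65 and 5.21 TPM in cKO. *Sp7*, which acts downstream of RUNX2, was 22.12, 19.85 and 13.21 TPM in control against 19.4, 29.89 and 17.78 TPM in cKO. For both, cKO replicate 2 was highest and control replicate 3 lowest. The log2 fold change was 0.11 (standard error 0.32, 95% interval -0.65 to 0.86) for *Runx2* and 0.26 (standard error 0.27, 95% interval -0.38 to 0.90) for *Sp7*, with unadjusted p of 0.753 and 0.366 from limma. The ratio of *Sp7* to *Runx2* in TPM was between 2.42 and 2.89 in the control and between 2.79 and 3.41 in the cKO libraries (two-sided exact permutation test, p = 0.4).

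The differences between libraries of the same group were larger than those between the groups for 7 of the 8 tested genes, all but *Bglap*, when the SD within groups is set beside the log2 fold change. Both libraries numbered 3 were the lowest of their group for the same 7 genes and for 37.2% of all tested genes. Control replicate 3 was the lowest of all 6 libraries for each of the 8 genes, and for 29.8% of all tested genes. cKO replicate 2 was the highest for 5 of the 8, *Dmp1*, *Ibsp*, *Spp1*, *Sp7* and *Runx2*, and for 25.1% of all tested genes. The median SD within groups was 0.46 over the 8 genes and 0.30 over all tested genes on the log2(TPM + 1) scale, and 7 of the 8 lay above the latter. The 7 genes other than *Bglap* varied together over the 6 libraries, with pairwise Pearson correlations of log2(TPM + 1) from 0.70 to 0.99, the closest being *Spp1* and *Runx2*. The correlations of *Bglap* with the other 7 were between 0.05 and 0.45. These points share library and scaling, and the values are a description of 6 libraries.

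**Figure D3:**
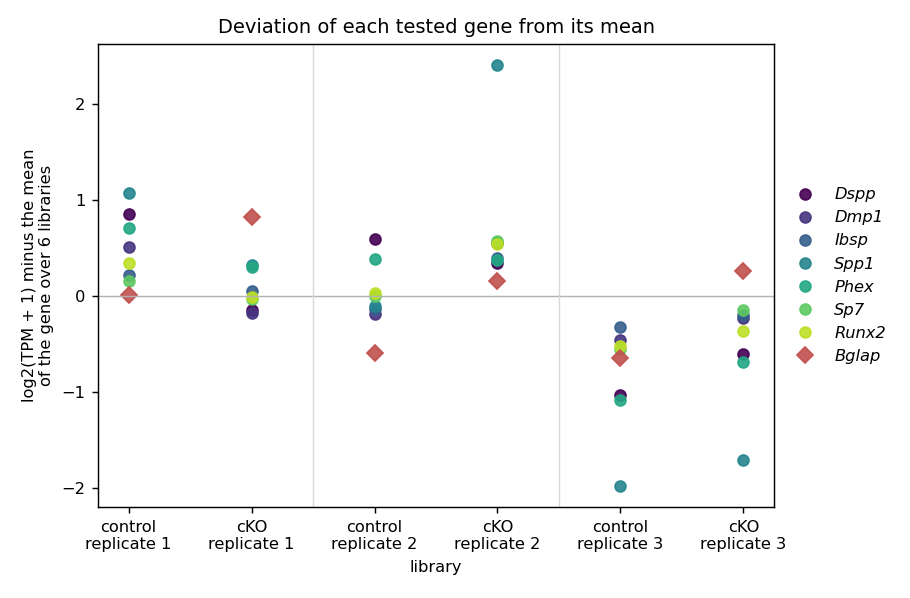
Deviation of log2(TPM + 1) from the mean of the gene over 6 libraries (vertical axis) for the 8 tested genes in each library (horizontal axis, arranged by replicate number). The 7 genes other than *Bglap* (circles) lie below 0 in both libraries numbered 3 and above 0 in control replicate 1 and cKO replicate 2, whereas *Bglap* (diamonds) is higher in the cKO library of each number.

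The tested genes most like *Dspp* over the 6 libraries, by Pearson correlation of log2(TPM + 1), were *Nmnat1*, *Dnajc3*, *Rab10*, *Nmi* and *Slc39a10*, with r from 0.9957 to 0.9987. For *Ibsp* they were *Ywhaq*, *Mab21l2*, *Arhgef10l*, *3110040N11Rik* and *Gm9889*, with r from 0.9877 to 0.9957. High correlations were common over 6 libraries, and 955 tested genes had an r above 0.9 with *Dspp* and 294 with *Ibsp*.

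*Bglap*, the osteocalcin gene, was higher in every cKO library than in any control library. It was 618.1, 408.8 and 392.2 TPM in control against 1089, 685.9 and 737.6 TPM in cKO. The means were 473 ± 126 TPM (SD, n = 3) and 837 ± 219 TPM (SD, n = 3), a ratio of 1.77 (two-sided exact permutation over the 6 libraries, p = 0.1, which is the lowest value this design can reach). The log2 fold change was 0.82 (standard error 0.25, 95% interval 0.24 to 1.41), with a limma p of 0.0128 before adjustment and an adjusted p of 1.00 over all genes tested. It therefore did not pass the correction for the number of genes. Of the 9 osteoblast markers, 8 had a positive log2 fold change and 1 a negative one, 2 met the criteria (*Bglap* and *Bglap2*) and 3 had groups apart and higher in cKO (*Bglap*, *Bglap2* and *Ifitm5*). Over all tested genes, 39.7% had a positive log2 fold change, 1.55% met the criteria as higher in cKO and 3.51% had groups apart and higher. *Bglap* and *Bglap2* share much of their sequence, so they do not count as separate results. The osteoblast marker sum, which includes *Bglap* and is led by *Col1a1*, overlapped between control and cKO (p = 0.3 by exact two-sided permutation). Markers of blood and vessels moved the other way, which was not particular to them. The log2 fold change was negative for 5 of 5 red blood cell genes and 5 of 5 endothelial genes. It was also negative for 5 of 5 tested macrophage markers, 7 of 8 dental epithelium markers and 5 of 10 mesenchymal markers. *Hbb-bs*, *Cdh5* and *Tek* met the criteria, as did 2.47% of all tested genes in that direction. After correction for length and GC content *Cdh5* and *Tek* did not meet them (limma p of 0.0624 and 0.0617 before adjustment). Nor did *Cdh5* and *Tek* with quantile normalization (0.0941 and 0.0675), or *Hbb-bs* and *Cdh5* with median-ratio scaling (0.149 and 0.0676). *Hbb-bs* did meet them with the length and GC correction (limma p of 0.00442 before adjustment) and quantile normalization (0.00466). The part of osteoblasts, blood and vessels in the *Bglap* values was not tested.

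The mouse has 2 further osteocalcin genes beside *Bglap* on chromosome 3, *Bglap2* from 88377736 to 88378699 and *Bglap3* from 88368616 to 88372743, and they share sequence. The transcripts of *Bglap* and *Bglap2* aligned with 98.86% identity over 439 positions, and 74.68% of the 50-base stretches of *Bglap* also occur in *Bglap2*, so that many reads could belong to either gene. *Bglap3* shares less, with 20.46% of the 50-base stretches of *Bglap* found in it. *Bglap2* was 1182, 857.7 and 693.7 TPM in control against 1818, 1245 and 1219 TPM in cKO, again without overlap. Its log2 fold change was 0.66 (standard error 0.25, 95% interval 0.07 to 1.24) with an unadjusted p of 0.0328 and an adjusted p of 1.00 from limma, and the unadjusted p was below 0.05 in 10 of 16 alternatives (range 0.0026 to 0.12). *Bglap3* was 13.24, 13.37 and 6.72 TPM in control against 21.22, 18.24 and 12.44 TPM in cKO, where the groups overlapped, with a log2 fold change of 0.62 (unadjusted p of 0.0875, limma). It met the criteria in 6 of 16 alternatives, among them quantile normalization (limma p of 0.0179) and median-ratio scaling (0.0297), and its log2 fold change fell to 0.32 without control replicate 3. The ratio of *Bglap2* to *Bglap* was between 1.77 and 2.10 in the control and between 1.65 and 1.81 in the cKO libraries (two-sided exact permutation test, p = 0.2). Summed over the 3 copies, the level was 1814, 1280 and 1093 TPM in control against 2928, 1949 and 1969 TPM in cKO. The sum still depends on how reads were split, since TPM divide by length and the transcript lengths are 440, 471 and 2051 bases. It averaged 1395 ± 374 TPM (SD, n = 3) for control and 2282 ± 559 TPM (SD, n = 3) for cKO, a log2 fold change of 0.72 (standard error 0.25, 95% interval 0.13 to 1.30) with a limma p of 0.0232 before adjustment.

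**Figure D4:**
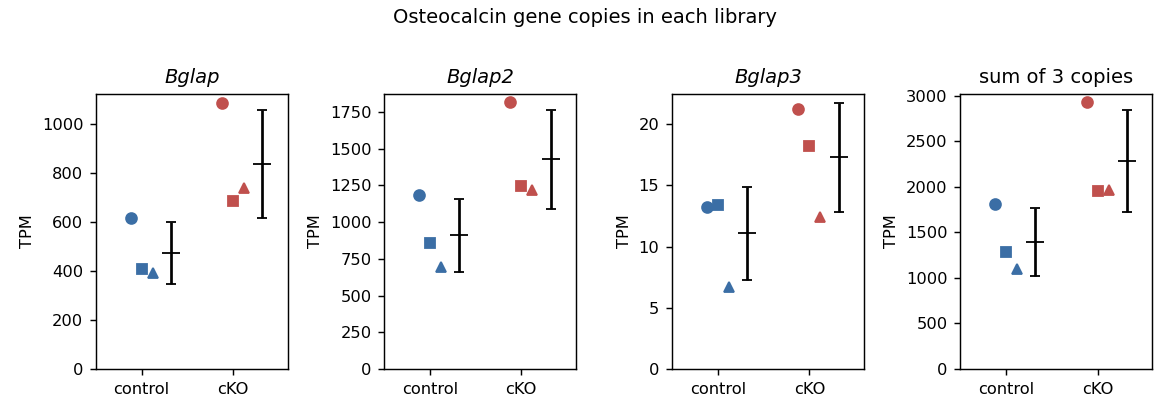
TPM of *Bglap*, *Bglap2*, *Bglap3* and their sum (vertical axes, from 0) in control (blue) and cKO (red) libraries, with symbols for replicates 1 (circle), 2 (square) and 3 (triangle) and the mean with its SD (n = 3) in black. The sum is between 1093 and 1814 TPM in the control and between 1949 and 2928 TPM in the cKO libraries.

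The transcript of *Bglap* has 440 bases and that of *Bglap2* 471 bases, among the shortest of protein-coding genes, and short transcripts had higher log2 fold changes than long ones in general. The median log2 fold change was 0.17 over the 1220 tested protein-coding genes of 114 to 1392 bases and -0.29 over the 1220 of 6786 to 40378 bases. With length and GC content corrected in each library, *Bglap* had a log2 fold change of 0.70 (unadjusted p of 0.0387, limma) and still met the criteria, against 4.52% of all tested genes in that fit. Its groups then overlapped, while 9.77% of all tested genes had groups apart. *Bglap2* no longer met the criteria, at 0.54 (unadjusted p of 0.0946, limma), and neither did the 3 copies summed, at 0.59 (0.0696). *Bglap3* now met them, at 0.58 (unadjusted p of 0.0431, limma), with groups apart. The same correction moved *Runx2*, with 6463 bases, from 0.11 to 0.37 and *Dspp*, with 4431 bases, from -0.27 to -0.13.

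**Figure D5:**
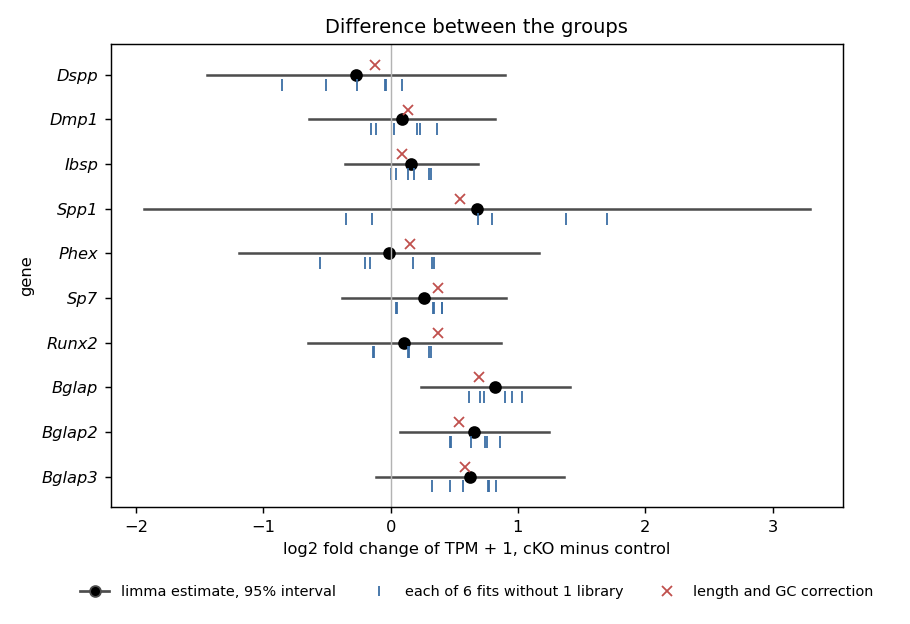
Log2 fold change (horizontal axis, cKO minus control) of the 8 tested genes and of *Bglap2* and *Bglap3*, with the limma estimate and its 95% interval in black, the 6 fits that each leave out 1 library as blue ticks and the fit after correction for length and GC content as a red cross. The intervals of *Bglap* (0.24 to 1.41) and *Bglap2* (0.07 to 1.24) lie above 0 and those of the other 8 genes include 0.

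The level of osteocalcin was also set against the collagen that osteoblasts and odontoblasts share. *Col1a1*, the main collagen chain of bone and dentin, was 3127, 1831 and 1795 TPM in control against 2172, 2309 and 2444 TPM in cKO, with a log2 fold change of 0.08 (standard error 0.24, limma p of 0.729 before adjustment). The ratio of *Bglap* to *Col1a1* in TPM was 0.198, 0.223 and 0.219 in the control and 0.501, 0.297 and 0.302 in the cKO libraries, without overlap (two-sided exact permutation test, p = 0.1). This ratio is not corrected for length, and sets a transcript of 440 bases against one of 5930 bases. The ratio of *Bglap* to *Dspp* was 0.475, 0.377 and 1.11 in the control and 1.67, 0.752 and 1.55 in the cKO libraries, with overlap (p = 0.2 by the same exact permutation). The ratio of *Dspp* to *Col1a1* was between 0.196 and 0.592 in the control and between 0.194 and 0.395 in the cKO libraries and overlapped (p = 0.4, two-sided exact permutation test).

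The genes that surround these 9 in mineralization were described by lists chosen by function. Of 18 genes of collagen and other matrix, led by *Col1a1*, 17 were tested and 0 met the criteria in either direction by limma. The median log2 fold change of that list was 0.03. Of 18 genes of mineral enzymes, phosphate transport and hormone signals, led by *Fgfr1*, 17 were tested and 0 met the criteria, with a median of 0.01. Groups lay apart for 2 higher and 1 lower gene of that list, against 3.51% and 6.13% of all tested genes. In that list *Ifitm5*, an osteoblast membrane protein gene, was 19.83, 14.87 and 13.76 TPM in control against 21.06, 38.1 and 20.53 TPM in cKO, without overlap (log2 fold change 0.64, unadjusted p of 0.054 from limma), and it met the criteria with quantile normalization (0.0166), median-ratio scaling (0.0155) and rescaling over protein-coding genes (0.0394). *Phospho1*, a phosphatase of matrix vesicles, was 13.65, 9.72 and 12.73 TPM in control against 14.98, 17.45 and 16.14 TPM in cKO, also without overlap (log2 fold change 0.41, unadjusted p of 0.068 from limma), and it met the criteria with the length and GC correction (0.0187). *Slc20a2*, a phosphate transporter, was 218.5, 219.8 and 226.5 TPM in control against 143.0, 153.6 and 215.1 TPM in cKO, apart and lower (log2 fold change -0.40, unadjusted p of 0.064 from limma), and it met the criteria with quantile normalization (0.0307) and rescaling (0.0453). *Alpl*, the tissue-nonspecific alkaline phosphatase, had a log2 fold change of -0.36 with overlap between the groups. With the length and GC correction *Ifitm5* (unadjusted limma p of 0.0587) and *Slc20a2* (0.157) did not meet the criteria. With median-ratio scaling *Phospho1* (0.066) and *Slc20a2* (0.22) did not, nor did *Phospho1* with quantile normalization (0.0731) or rescaling (0.0895). With the replicate block *Ifitm5* (0.031) and *Slc20a2* (0.0433) met them and *Phospho1* (0.0565) did not. Without control replicate 2 *Ifitm5* (0.113), *Phospho1* (0.196) and *Slc20a2* (0.104) did not meet them. *Ifitm5*, *Phospho1*, *Slc20a2* and *Alpl* were picked after their values were seen.

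Of 17 integrins, receptors and proteases that bind or process SIBLING proteins, led by the enamel protease *Mmp20*, 15 were tested and 0 met the criteria, with a median of -0.31 on the log2 scale. Among them 3 of 15 genes, *Itgb3*, *Itga5* and *Mmp14*, had groups apart and lower in cKO, against 6.13% of all tested genes, with log2 fold changes of -0.31, -0.37 and -0.36. *Itgb3* lay at the filter of 1 TPM, with means of 1.23 TPM in control and 0.79 TPM in cKO. It passed the filter only through its control values, so its place among the 3 carries no weight. *Mmp14* met the criteria with quantile normalization (limma p of 0.0386) and rescaling (0.0386). After correction for length and GC content the log2 fold changes of *Itgb3*, *Itga5* and *Mmp14* were -0.05, -0.15 and -0.25. The limma p before adjustment was then 0.837, 0.351 and 0.144, so none of them met the criteria. Of 20 regulators around RUNX2 and SP7, led by *Sp6*, 19 were tested. Among these 1 met the criteria, lower in cKO, against 2.47% of all tested genes in that direction, and the median was -0.01. It was *Nfic*, a transcription factor needed for root formation, at 20.56, 17.94 and 17.7 TPM in control against 8.88, 11.46 and 16.85 TPM in cKO, with a log2 fold change of -0.60 (standard error 0.25) and a limma p of 0.0435 before adjustment. With 6237 bases its transcript is long, and after correction for length and GC content its log2 fold change was -0.30 with a limma p of 0.152 before adjustment. That p was 0.106 with quantile normalization and 0.0813 with median-ratio scaling, so the criteria were then not met, and 0.0276 with rescaling, where they were. The enamel matrix genes *Amelx*, *Ambn*, *Enam*, *Amtn* and *Odam*, relatives of the SIBLING genes that ameloblasts express, had a median log2 fold change of -0.50, and 0 of the 5 met the criteria by limma. All 5 values were negative, except that *Amelx*, the top gene, came to 0 with quantile normalization and *Odam* to 0.021 without control replicate 2. *Ambn* was 31405, 32180 and 33061 TPM in control against 24646, 8562 and 26263 TPM in cKO, without overlap, with a log2 fold change of -0.86 (standard error 0.42) and a limma p of 0.0766 before adjustment. By limma, 0 genes of the 5 lists were below an adjusted p of 0.05, and the median over all tested genes was -0.07.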

How the data were processed

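RNA-seq was performed on 6 libraries, 3 per genotype, whose groups and replicate numbers come from the sample titles. The deposited columns are numbered otherwise than the titles, in the same way in both groups. The authors trimmed reads with SeqPrep and Sickle and aligned them with HISAT2. The paper names RSEM for abundance and the submitters' processing notes name StringTie, and the genome build is not given in the sources used here. The deposited values were taken as TPM, because the totals of the libraries lie between 983952 and 993946, although the paper's methods name FPKM. Depth is unknown.

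Gene positions, lengths and GC content came from GENCODE M21 (GRCm38), which holds 99.53% of the 55487 gene identifiers. limma (version 3.58.1, R 4.3.3) with a mean-variance trend and no block was fitted to log2(TPM + 1) of the 13719 genes whose mean reached 1 TPM, with Benjamini-Hochberg adjustment over all of them, and tested on simulated data. Replicates are pools called biological replicates by the submitters. Whether they came from separate litters is not stated, so p-values measure the spread between these pools. Single values were compared by exact two-sided permutation. The correction for length and GC content fits natural splines with 4 degrees of freedom to each library's deviations. The genes and lists were chosen with earlier results of these data known. Genes named are the 9 genes, *Bglap2*, *Bglap3*, *Wnt10a*, the 5 genes most like *Dspp* and *Ibsp*, and from each list its most abundant gene, those that met the criteria and markers listed at 0. Other genes were named after their values were seen. The alternatives were a pseudocount of 0.1, no filter, quantile and median-ratio scaling, rescaling over protein-coding genes with *Amelx* and *Ambn* left out, the replicate block, the length and GC correction, no trend and leaving out each library. Added later were the summed osteocalcin copies and leaving out both libraries numbered 3.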

Additional observations from a re-analysis of the deposited data

How the results depend on the processing

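The number of the 8 tested genes meeting the criteria, 1 without a block, was 2 with the length and GC correction and the replicate block together, where *Sp7* was the further gene, and between 1 and 2 when libraries were left out, 2 without control replicate 3 and 2 without both libraries numbered 3, where *Dspp* was the further gene. *Bglap* stayed positive in all 19 alternatives, from 0.59 to 1.03, with an unadjusted p below 0.05 from limma in 18, all but the summed copies after the length and GC correction, and its adjusted p was between 0.328 and 1.00. Same-numbered libraries had correlations of their deviations from the group means of -0.08, 0.29 and 0.40, and control replicate 1 correlated best with cKO replicate 2 (0.058), so the numbers were not taken as pairs. With the replicate block the count of genes meeting the criteria was again 1, and *Bglap* had an unadjusted p of 0.000579 and an adjusted p of 0.328 from limma. The direction turned for *Dspp* without control replicate 1 (0.087, range -0.86 to 0.087 with libraries left out), for *Dmp1*, *Spp1* and *Runx2* without control replicate 3 (-0.11, -0.14 and -0.13) and without cKO replicate 2 (-0.16, -0.35 and -0.14), with ranges of -0.16 to 0.37, -0.35 to 1.7 and -0.14 to 0.32, and for *Phex* with quantile normalization (0.040), median-ratio scaling (0.055), the length and GC correction with and without the block (0.15) and without control replicate 1 (0.34), control replicate 2 (0.18) or cKO replicate 3 (0.33), with a range of -0.56 to 0.34. The cause of these changes was not tested. Median-ratio scaling moved the median of all genes from -0.07 to -0.01, rescaling to protein-coding genes to -0.12, and leaving out control replicate 3 to -0.18. The share of all tested genes meeting the criteria was taken only for the limma fit described above (4.02%) and the length and GC correction (4.52%). Whether the count of the 8 genes moved with that share in other settings was not tested.

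The counts of genes meeting the criteria in the lists were small and moved with the settings. For most settings no share of all tested genes was taken, so whether the counts moved with that share was not tested. For collagen and matrix the 0 became 2 with the block and the correction, and between 0 and 1 with libraries left out. For mineral enzymes the 0 became 2 with quantile normalization, 1 with median-ratio scaling, 2 with rescaling, 2 with the block, 1 with the correction, 2 with both, and between 0 and 4 with libraries left out. For receptors and proteases the 0 became 2 with quantile normalization, 2 with rescaling, 1 with the block and the correction, and between 0 and 4 with libraries left out. For the regulators the 1 became 0 with quantile normalization, median-ratio scaling and the correction with and without the block, and between 0 and 2 with libraries left out. For the enamel genes the 0 became 1 with the block, 1 with the block and the correction, and between 0 and 2 with libraries left out.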
